A study of Mus musculus with 20 samples.

Results

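The 10 immediate early genes FOS, JUN, JUNB, EGR1, ATF3, IER2, IER3, MYC, DUSP1 and KLF6 were followed in livers in which the RNA-binding protein HuR (gene ELAVL1) had been knocked down. A row was taken as a member where its gene symbol equalled one of these names, ignoring case. All 10 had a single row in each deposited table, 10 of the 55335 rows of the mouse table and 10 of the 60607 rows of the human table. RNA had been sequenced from 20 livers. Male WT C57BL/6 mice (bought at 8 weeks of age and housed for 10 to 14 days) received the HuR shRNA adenovirus (WT HuR KD, 6 livers) or the LacZ control virus (WT LacZ, 6 livers). Humanized TK-NOG mice received an HuR shRNA or the LacZ adenovirus as well (humanized HuR KD, 4 livers, and humanized LacZ, 4 livers). Every animal was given 2000000000 pfu of adenovirus intravenously, and the livers were taken on day 7 after a fast of 4 h, so the controls had seen virus and the fast as well.

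TK-NOG mice are highly immunodeficient and carry a herpes simplex virus thymidine kinase transgene driven by the albumin promoter, so that ganciclovir removes the host's own hepatocytes. They had been given ganciclovir (25 mg/kg) at 8 to 9 weeks of age and then 1000000 cryopreserved human hepatocytes, and entered the experiment 8 to 12 weeks after transplantation where serum human albumin was above 0.5 mg/ml. Their livers still hold mouse cells of every other type and some mouse hepatocytes, and the table used here gives the human genes only. Per the methods of the study the hairpin was against mouse HuR in WT mice and against human HuR in humanized mice, so the knockdown agent differed between the sets. The comparison asks whether mRNAs of a kind that HuR is known to bind change in level when HuR mRNA is lowered, in mouse liver and in human hepatocytes inside a mouse.

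Immediate early genes are transcribed within minutes of a stimulus, without new protein synthesis, and their mRNAs are short-lived. Much of that instability is set by AU-rich elements in the 3′ UTR, built around the pentamer ATTTA, through which decay factors such as ZFP36 shorten the life of an mRNA and HuR is known to lengthen it. In liver these genes respond to feeding, injury, partial hepatectomy and to the handling of the tissue itself.

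The mouse transcripts carried at least 1 ATTTA pentamer in 9 of the 10 members, beside 64.3% of all genes. ATTTA, searched on the sense strand of the 3′ UTR of each gene's APPRIS principal transcript (the longest where there were several) with overlapping matches counted, was found 2 times in Junb, Egr1 and Myc, 3 times in Atf3, 4 times in Fos, Jun and Dusp1, 5 times in Ier3 and 7 times in Klf6, while the 755-base 3′ UTR of Ier2 held 0. Of the 20485 mouse protein-coding genes with a 3′ UTR of at least 50 bases, 64.3% held the pentamer, at a median of 1.24 per kilobase. Ier3 held 8.16 per kilobase, which exceeded 97.7% of these genes, followed by Dusp1 at 5.80 and Fos at 4.91. Myc, Junb and Jun held 4.29, 4.12 and 3.24 per kilobase. Atf3, Klf6 and Egr1 held 2.53, 2.25 and 1.64, the last above 57.6% of genes. The longer TTATTTATT, which contains the pentamer, was found 1 time in Fos and 2 times in Dusp1 and in 7.36% of genes. A match describes the letters of the UTR and is not a measured HuR site.

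Stretches of 30 bases from 4 members are shown because they hold the densest ATTTA cluster, in capitals, of members on which the results turn. They were read 5′ to 3′ from the GENCODE M21 mouse transcripts on GRCm38 (mm10), on the strand of the gene, each within the last exon.
Fos, chr12:85477100-85477129, plus strand, exon 4: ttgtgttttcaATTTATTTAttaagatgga
Dusp1, chr17:26506157-26506186, minus strand, exon 4: agctggtccttATTTATTTAacacccccct
Ier3, chr17:35822484-35822513, plus strand, exon 2: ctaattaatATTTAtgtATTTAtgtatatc
Myc, chr15:61990134-61990163, plus strand, exon 3: ttaacagatttgtATTTAattgttttttta
In Fos and Dusp1 the 2 pentamers overlapped by a base, in Ier3 they stood apart, and Myc held a single pentamer in this stretch.

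The values are TPM, read counts scaled for gene length and then to a sum of 1000000 in each library, so levels of different genes within a library can be compared. The read numbers recovered from the step size of the TPM ranged from 1423985 (WT LacZ 2) to 44668272 per library in WT livers and from 2060176 to 13953731 in humanized livers, the latter without MT-RNR2, whose reads could not be recovered. WT LacZ 2 and WT HuR KD 6 (12960373 reads) were the shallowest WT libraries. Humanized HuR KD 4 and humanized LacZ 2 stood apart from the other humanized livers. They were the deepest, mitochondrial rRNA took 49.1% of the TPM in each against 27.2% to 36.0% in the other 6, and their deviations from the group means correlated across genes at 0.53, a description over genes of 2 libraries. Results that change without any of these 4 livers are given both ways, where the gene still passed the filter on low values. The labelled tissue held the hepatocyte markers at summed levels of 78209 to 92257 TPM in WT and 40409 to 89526 TPM in humanized livers. Of the 10 human macrophage markers 0 passed the filter on low values, 7 were under 0.1 TPM in every liver, and the summed level was at most 1.24 TPM. Of 4 human cholangiocyte markers tested, 2 were lower and 0 higher with knockdown at an unadjusted limma p under 0.05, beside 11.5% of all genes called. The 1 human stellate marker tested was lower too. The summed levels of these 2 cell types were at most 44.4 and 4.67 TPM, and their part in the members' values was not tested.

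HuR mRNA was lower in every knockdown liver. Elavl1 ranged from 3.72 to 5.62 TPM (median 4.97) in WT HuR KD and from 8.58 to 10.7 TPM (median 9.49) in WT LacZ livers, with no overlap. The mean was 51.7% of control, the log2 fold change was -0.83 with a standard error (SE) of 0.089, and the adjusted p was 0.00105 (limma, Benjamini-Hochberg). In humanized livers ELAVL1 stood at 4.05, 2.37, 3.54 and 3.90 TPM with knockdown and at 5.76, 4.77, 6.17 and 5.99 TPM with LacZ, again with no overlap. Here the mean was 61.0% of control and the log2 fold change -0.59 (SE 0.17), which passed the unadjusted but not the adjusted limma threshold (adjusted p = 0.214). The exact permutation p was 0.00216 in WT and 0.0286 in humanized livers, the smallest that 6 against 6 and 4 against 4 livers can give. The fold change of HuR did not differ detectably between the sets (interaction 0.24, 95% interval -0.11 to 0.59).

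In WT livers the members were at low to moderate levels and a single member passed the test. With a gene called at an unadjusted limma p under 0.05, the threshold of the study, 1 of the 10 members was called, against 16.0% of the 15090 genes tested, and that gene, Myc, was higher with knockdown, against 9.09% of genes called higher. After adjustment 0 of the 10 passed, against 0.888% of genes, and 0 of the 10 had groups that did not overlap, against 2.49%. The median log2 fold change of the members was -0.04 beside 0.03 over all genes tested. All 10 passed the filter of a mean of at least 1 TPM, although Ier3 did so narrowly. Since these are bulk livers, fewer cells of a type and less RNA per cell cannot be told apart. Macrophage markers moved with the knockdown in this set: 6 of the 10 were lower at p under 0.05, beside 6.94% of all genes, and 0 higher. Their summed level was 482 to 818 TPM in knockdown and 684 to 938 TPM in LacZ livers. Among other markers tested, 1 of 6 hepatocyte and 1 of 5 stellate markers were lower. Of the endothelial markers 1 of 6 was higher, and of the erythroid markers 1 of 3. The part of these cells in the members' values was not tested.

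Myc encodes the transcription factor that drives growth and ribosome synthesis. It was at 4.70 TPM in the lowest, 8.05 at the median and 9.80 in the highest WT HuR KD liver, and at 3.74, 5.34 and 6.42 TPM in the WT LacZ livers. Of the 6 knockdown livers 4 (HuR KD 1, 2, 4 and 5) lay above all 6 LacZ livers, while HuR KD 3 and 6 lay within their range. The mean was 7.63 ± 2.27 TPM (SD, n = 6) against 5.37 ± 0.977 TPM (SD, n = 6), 142% of control. The log2 fold change was 0.41 (SE 0.18, 95% interval 0.03 to 0.79) with an adjusted p of 0.276. The unadjusted limma p was 0.0377, and the two-sided exact permutation test over the 924 groupings gave p = 0.0714. The call rested on several single livers. It was lost without HuR KD 2, 4 or 5 and without LacZ 1, 2, 5 or 6, at log2 fold changes of 0.33 to 0.42, and the gene stayed higher in all 12 such fits. Without the shallow LacZ 2 and HuR KD 6 together it was called at 0.44 (adjusted p = 0.102). With array weights Myc was at 0.48 (limma adjusted p = 0.0326), in a fit in which 1717 of 15090 genes passed adjustment.

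**Figure D1:**
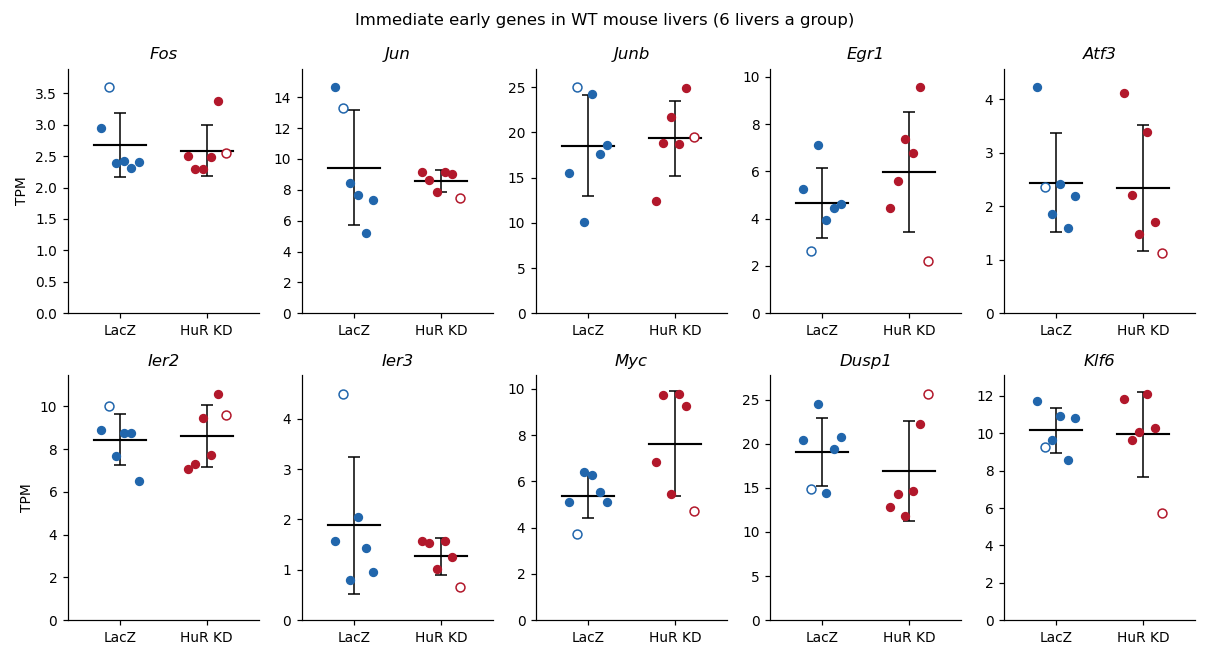
TPM of the 10 members in each of the 6 WT LacZ and 6 WT HuR KD livers, 1 point per liver in replicate order, with the mean (horizontal line) and SD (bar). Open circles are the shallowest libraries, LacZ 2 and HuR KD 6. In every panel the groups overlap, and in the Myc panel 4 knockdown livers lie above all LacZ livers.

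The AP-1 subunits did not pass the test. Fos, which pairs with Jun proteins, was at 2.30 TPM in the lowest, 2.49 at the median and 3.38 in the highest WT HuR KD liver and at 2.31, 2.41 and 3.60 TPM in WT LacZ. The groups covered nearly the same range, and the highest value, 3.60 TPM in LacZ 2, rested on 5 reads (95% exact Poisson interval 1.17 to 8.41 TPM, for counting error only). Jun, the main partner of Fos, was at 7.48, 8.81 and 9.17 TPM with knockdown and at 5.19, 8.06 and 14.7 TPM with LacZ. The knockdown livers lay inside the wider LacZ range, in which LacZ 1 and LacZ 2 were high and LacZ 5 low. Junb, a weaker AP-1 activator, was at 12.4, 19.1 and 24.9 TPM with knockdown and at 10.1, 18.1 and 25.1 TPM with LacZ, and the extremes of the LacZ group enclosed the knockdown group. The log2 fold changes were -0.03 for Fos (95% interval -0.27 to 0.20), -0.06 for Jun (-0.48 to 0.36) and 0.09 for Junb (-0.36 to 0.53), with exact permutation p of 0.736, 0.848 and 0.716. For Fos the interval on this scale corresponded to 0.831 to 1.15 times the control level of TPM + 1.

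The other transcription factors among the members varied more between livers than between groups. Egr1, a zinc finger activator, was at 2.22 TPM in the lowest, 6.18 at the median and 9.58 in the highest WT HuR KD liver and at 2.65, 4.52 and 7.12 TPM in WT LacZ. HuR KD 3 and 5 lay above all LacZ livers and HuR KD 6 below them. Its log2 fold change was 0.25 (95% interval -0.32 to 0.82, exact permutation p = 0.405). Among its 23 alternative fits it passed the unadjusted threshold only without HuR KD 6, at 0.46 (adjusted p = 0.256). Atf3, a stress-induced factor of the CREB family, was at 1.13, 1.96 and 4.12 TPM with knockdown and at 1.59, 2.28 and 4.24 TPM with LacZ. HuR KD 1 and LacZ 1 were the highest of their groups. Klf6, a zinc finger factor of injury and repair, was at 5.73, 10.2 and 12.1 TPM with knockdown and at 8.56, 10.2 and 11.7 TPM with LacZ, and HuR KD 6 lay below and HuR KD 1 and 4 above every LacZ liver. Neither Atf3 (log2 fold change -0.08, exact permutation p = 0.751) nor Klf6 (-0.05, p = 0.816) passed.

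Feedback and survival genes did not pass either. Dusp1, the phosphatase that switches off MAP kinases, was at 11.8 TPM in the lowest, 14.5 at the median and 25.7 in the highest WT HuR KD liver and at 14.4, 19.9 and 24.5 TPM in WT LacZ. HuR KD 1, 2 and 3 lay below every LacZ liver, and HuR KD 6 lay above every LacZ liver. Its log2 fold change was -0.20 (95% interval -0.61 to 0.22, exact permutation p = 0.379). Without LacZ 2 and HuR KD 6 together it was called at -0.39 (adjusted p = 0.198), and with array weights at -0.36 (adjusted p = 0.156). Both fits called more of all genes than the main fit, which called 1371 higher and 1047 lower. Without the 2 livers 2323 were called higher and 1176 lower, and with array weights 2856 and 1349. Ier3, an inhibitor of cell death, was at 0.664, 1.39 and 1.57 TPM with knockdown and at 0.80, 1.502 and 4.50 TPM with LacZ. Its highest value, in LacZ 2, rested on 3 reads (exact Poisson interval 0.928 to 13.1 TPM), and the other 5 LacZ livers were between 0.80 and 2.04 TPM. The fitted difference was -0.26 (exact permutation p = 0.392) and moved to 0.04 without LacZ 2 and HuR KD 6. Ier2, a nuclear protein and the member without the pentamer, was at 7.09, 8.59 and 10.6 TPM with knockdown and at 6.52, 8.76 and 10.01 TPM with LacZ. Its groups lay on top of each other, with a log2 fold change of 0.03 (95% interval -0.22 to 0.27).

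In the human hepatocytes of the humanized livers 0 of the 9 members tested were called at an unadjusted limma p under 0.05, against 11.5% of the 12738 genes tested. After adjustment 0 of 9 passed, against 0.212% of genes, and the groups of 0 of 9 were apart, against 7.16%. Limma-voom on the recovered reads called 1, FOS, which passed the filter on low values through humanized HuR KD 4 alone. Of all genes 458 were called higher and 1003 lower, a split that became 791 and 876 with median-of-ratios factors, so a share of the lower calls depends on the scaling. The median log2 fold change of the members was 0.00 beside -0.05 over all genes. The tenth member, IER3, was listed at 0 in all 8 livers and was not tested.

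MYC was lower in 3 of 4 knockdown livers than in every control, without passing the test. It was at 2.24, 3.49, 1.41 and 6.73 TPM in humanized HuR KD 1 to 4 and at 3.93, 6.69, 4.54 and 8.02 TPM in humanized LacZ 1 to 4. HuR KD 1, 2 and 3 lay below all LacZ livers, and HuR KD 4 lay among the higher LacZ values. The mean was 3.47 ± 2.34 TPM (SD, n = 4) against 5.80 ± 1.90 TPM (SD, n = 4), 59.8% of control. The log2 fold change was -0.70 (SE 0.35, 95% interval -1.50 to 0.09), with a limma p of 0.0767, an adjusted p of 0.501 and an exact permutation p over 70 groupings of 0.143. Without HuR KD 4 it was -1.01 (adjusted p = 0.188), and without HuR KD 4 and LacZ 2 together it was -0.94 (adjusted p = 0.205), both past the unadjusted threshold. With a term for the 2 livers it was called at -0.70. Limma-voom on recovered reads gave -0.58 (adjusted p = 0.692) and did not call it.

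FOS was the member with the fewest reads. It was at 1.01, 1.22, 0.813 and 4.50 TPM in humanized HuR KD 1 to 4, from 5, 8, 12 and 159 reads, and at 0.0807, 0.514, 1.53 and 0.577 TPM in humanized LacZ 1 to 4, from 1, 18, 18 and 3 reads. HuR KD 4 was far above the rest, and LacZ 3 lay above the other 3 knockdown livers. The exact Poisson interval of the single read in LacZ 1 ran from 0.00204 to 0.450 TPM. The log2 fold change was 0.69 (95% interval -0.27 to 1.65, exact permutation p = 0.171). The fit on recovered reads, which does not damp low values as a pseudocount of 1 does, called it at 2.16 (limma-voom, adjusted p = 0.331). FOS passed the filter of 1 TPM only through the knockdown group, and there only through HuR KD 4: its mean over livers was 1.28 TPM with that liver and 0.819 TPM without it, so no filtered fit without HuR KD 4 included it. In a fit with no filter and without HuR KD 4, added after seeing the data, the log2 fold change was 0.33 (95% interval -0.46 to 1.12, limma adjusted p = 0.737). The calls of FOS are therefore given as descriptions.

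**Figure D2:**
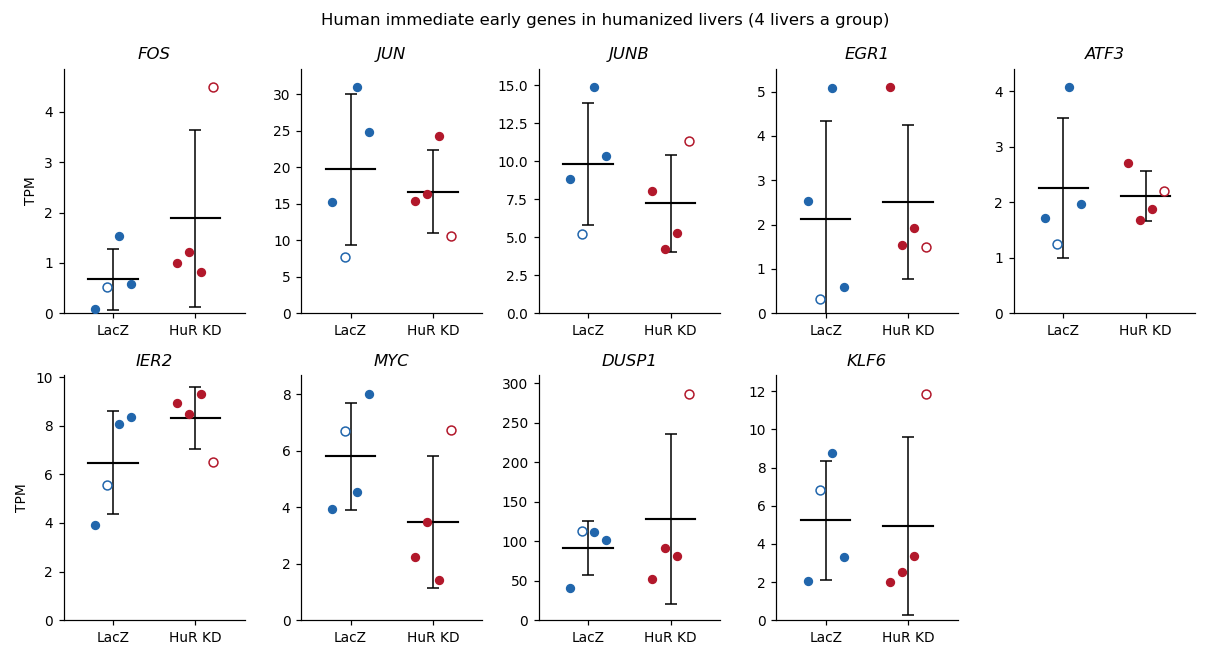
TPM of the 9 human members above 0 in each of the 4 humanized LacZ and 4 humanized HuR KD livers, 1 point per liver in replicate order, with the mean (horizontal line) and SD (bar, cut at 0 for EGR1). Open circles are LacZ 2 and HuR KD 4, the livers that stood apart. HuR KD 4 is the highest liver for FOS, DUSP1 and KLF6, and all panels show overlap.

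JUN was at 15.4, 16.4, 24.3 and 10.6 TPM with knockdown and at 15.2, 7.69, 31.0 and 24.8 TPM with LacZ. JUNB was at 8.06, 4.24, 5.31 and 11.3 TPM with knockdown and at 8.85, 5.22, 14.9 and 10.4 TPM with LacZ. Among the controls both were lowest in LacZ 2 and highest in LacZ 3. For JUN the log2 fold change was -0.12 (exact permutation p = 0.83). For JUNB it was -0.40 (exact permutation p = 0.371), and it was called at -0.86 (adjusted p = 0.176) without HuR KD 4 and LacZ 2 but was 0.0038 on recovered reads.

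EGR1 was at 5.11, 1.54, 1.93 and 1.49 TPM with knockdown and at 2.54, 0.319, 5.08 and 0.586 TPM with LacZ, a range of 16.0-fold over livers. A single liver of each group, HuR KD 1 and LacZ 3, exceeded 5 TPM. ATF3 was at 2.70, 1.68, 1.87 and 2.21 TPM with knockdown and at 1.72, 1.24, 4.08 and 1.97 TPM with LacZ. KLF6 was at 1.98, 2.53, 3.34 and 11.9 TPM with knockdown and at 2.05, 6.81, 8.76 and 3.30 TPM with LacZ. Outside HuR KD 4, all knockdown livers were at or below 3.34 TPM, and so were LacZ 1 and LacZ 4. Log2 fold changes were 0.33 for EGR1 (95% interval -0.81 to 1.48), 0.00 for ATF3 (-0.61 to 0.60) and -0.19 for KLF6 (-1.33 to 0.95), and none passed (adjusted p of 0.858 to 0.998).

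DUSP1 was the most abundant human member, at 51.6, 91.2, 81.3 and 287 TPM with knockdown and at 41.3, 113, 112 and 102 TPM with LacZ. HuR KD 4 stood at 287 TPM on 6407 reads (exact Poisson interval 280.0 to 294 TPM), far above every other liver. Its log2 fold change of 0.26 (95% interval -0.90 to 1.42, exact permutation p = 0.771) turned to -0.23 without HuR KD 4 and to -0.083 without LacZ 1. IER2 was at 8.95, 8.50, 9.33 and 6.50 TPM with knockdown and at 3.93, 5.56, 8.08 and 8.36 TPM with LacZ. HuR KD 1, 2 and 3 lay above all LacZ livers. The fitted difference was 0.35 (95% interval -0.15 to 0.86, exact permutation p = 0.171). Among its 20 alternative fits it passed the unadjusted threshold after quantile normalization only, at 0.44 (adjusted p = 0.385).

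The 0 of IER3 is an entry of the table and was not read as absence of its mRNA. Of 16 genes that share a symbol with a mouse gene within 250000 bases of mouse Ier3, 14 were listed at 0 in all 8 human libraries. Among the 10 of them whose mouse counterpart averaged at least 5 TPM in WT livers, 8 were at 0 throughout, among them ABCF1, FLOT1 and PPP1R10. Over all 7639 pairs with that mouse level, 2.55% had a human gene at 0 in every library. HSPA1A and HSPA1B, heat shock genes, were also at 0 in all 8. Why these entries are 0 was not tested.

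Set side by side, the fold changes of most members had wide intervals that included 0 in both sets. The interaction of set and knockdown was fitted over 8202 pairs with the same symbol, and 2 of 9 member pairs (22.2%) had an unadjusted limma p under 0.05, against 19.7% of all pairs. After adjustment 0 of 9 passed, against 5.01%. For MYC the fold change was lower in humanized than in WT livers (difference -1.11 on the log2 scale, SE 0.36, 95% interval -1.86 to -0.36, adjusted p = 0.0805). The joint fit took 1 residual variance per gene over both sets, although the residual SD of MYC was 0.58 in humanized and 0.33 in WT livers. Its intervals can be too narrow and its p too small where the smaller humanized set varies more. The MYC difference was between -1.42 and -0.86 in all 29 alternative fits, past the unadjusted threshold in each, with adjusted p from 0.00888 to 0.173. Limma-voom was not among these fits. The other pair was FOS, whose fold change was 0.72 higher in humanized livers (SE 0.35, adjusted p = 0.246). Human FOS entered this fit only through HuR KD 4, and with no filter and without that liver the value was 0.36 (95% interval -0.16 to 0.88, adjusted p = 0.465), so its call is not read as a difference between the sets. It missed the unadjusted threshold in 17 of 28 alternative fits, among them those without WT HuR KD 1, 2, 3, 4 or 6, WT LacZ 1, 2, 3, 4 or 6, or humanized LacZ 1, 2 or 4. Of the remaining 7 pairs 0 passed in the main limma fit. Without humanized HuR KD 4 and LacZ 2 together 2 member pairs passed the unadjusted threshold, beside 2137 of all 8213 pairs. FOS was not in that fit, so it held fewer than 9 member pairs, and a member other than MYC and FOS passed there. That pass is not read as a result about the member, since the main fit called 1618 of all 8202 pairs and this fit more. The sets differed, among other things, in strain, age, host treatment, hairpin, alignment index and read depth, so these and the species cannot be told apart.

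**Figure D3:**
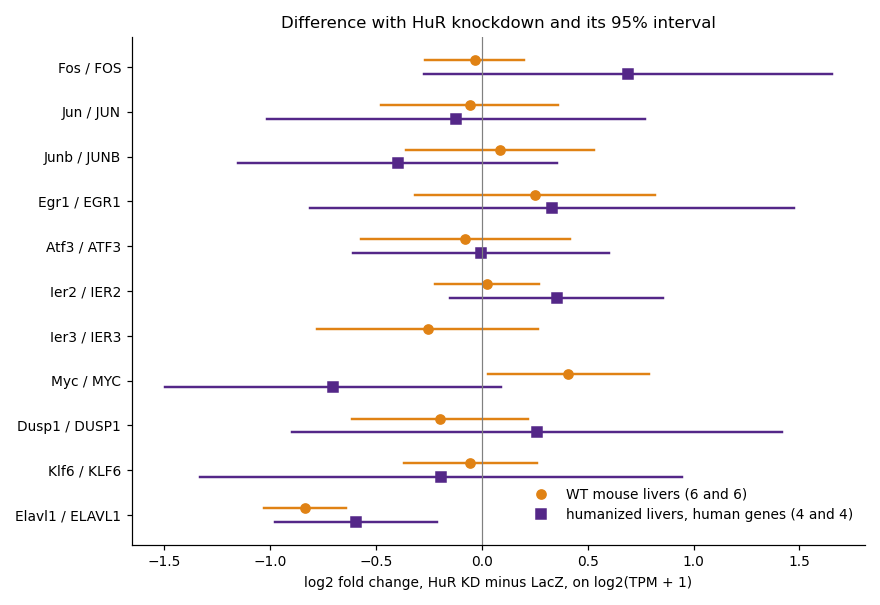
Log2 fold change (HuR KD minus LacZ, on log2(TPM + 1)) of each member and of HuR in WT livers (orange circles) and humanized livers (purple squares), with 95% limma intervals as lines. The interval of HuR lies below 0 in both sets. Among the members, that of Myc in WT livers, 0.03 to 0.79, is the only interval that excludes 0, and IER3 has no human value.

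The members ordered differently by level in the tables. In WT LacZ livers the mean levels were 19.1 TPM for Dusp1, 18.5 for Junb, 10.2 for Klf6, 9.44 for Jun, 8.44 for Ier2, 5.37 for Myc, 4.67 for Egr1, 2.68 for Fos, 2.45 for Atf3 and 1.88 for Ier3. Neighbours in this order lay within the larger of their SDs of each other, except Junb and Klf6, Ier2 and Myc, and Egr1 and Fos. In humanized LacZ livers they were 91.9 TPM for DUSP1, 19.7 for JUN, 9.84 for JUNB, 6.48 for IER2, 5.80 for MYC, 5.23 for KLF6, 2.25 for ATF3, 2.13 for EGR1 and 0.675 for FOS, and DUSP1 was the member that stood clear of its neighbour by this measure. The tables were normalized separately, and protein-coding genes took 75.6% to 77.6% of the TPM in WT and 28.9% to 37.8% in humanized libraries, so levels were not compared between them.

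The residual spread within groups ranked high for most of these genes. The rank takes no account of level, and the spread holds counting error as well as variation between livers. The residual SD of a gene on the log2 scale was ranked among all genes tested, and the members' median percentile was 80.2 in WT and 82.7 in humanized livers. In WT livers Egr1 was at the 88.3rd percentile, Ier3 at the 85.7th and Atf3 at the 84.5th, whereas Fos was at the 37.3rd and Ier2 at the 50.4th. In humanized livers DUSP1 was at the 89.97th, KLF6 at the 89.6th and EGR1 at the 89.0th percentile, and IER2 was the lowest at the 55.5th. HuR itself was at the 26.5th and 21.7th percentile. The lowest and highest WT liver differed 1.57-fold for Fos and 6.77-fold for Ier3, the latter 3.08-fold without LacZ 2, where Ier3 had 3 reads. In humanized livers they differed 2.38-fold for IER2, 6.96-fold for DUSP1 and 55.8-fold for FOS, which was 8.75-fold without the single read of LacZ 1 and 18.9-fold without HuR KD 4.

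Single livers stood out for several members at once. WT HuR KD 6 was the lowest liver for 4 of the 10 members (Egr1, Atf3, Ier3 and Klf6) and the highest for Dusp1, and WT LacZ 2 was the highest for 3 (Fos, Junb and Ier3). In humanized livers LacZ 3 was the highest for JUN, JUNB and ATF3 and lay above the LacZ mean for 8 of 9 members, as HuR KD 4 did for 7 and LacZ 1 for 1. WT HuR KD 5 lay above the LacZ mean for 8 of 10, and the other 11 WT livers for 3 to 7. HuR KD 4 was the highest for FOS, DUSP1 and KLF6, and LacZ 1 was the lowest for FOS, IER2 and DUSP1. LacZ 2, which shared the depth and the mitochondrial share of HuR KD 4, was the lowest for JUN, EGR1 and ATF3. These are descriptions of livers, and their causes were not tested.

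**Figure D4:**
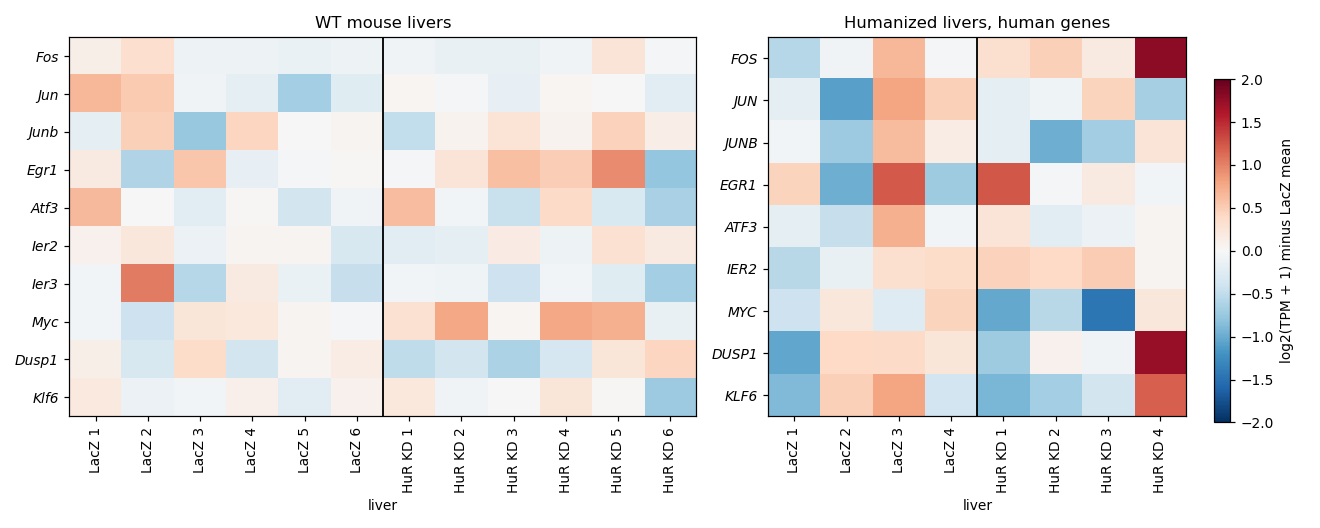
Deviation of log2(TPM + 1) from the mean of the LacZ livers of the set, for each member (rows) in each liver (columns), with LacZ livers left and HuR KD livers right of the black line. Red is above and blue below the LacZ mean. The darkest cells are FOS and DUSP1 in humanized HuR KD 4, and the Myc row is red in WT HuR KD 1, 2, 4 and 5 and only faintly so in HuR KD 3, and the MYC row blue in 3 humanized knockdown livers.

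In WT livers a wider list of 54 other immediate early genes was followed. Of its 47 genes tested, 9 fell and 1 rose at p under 0.05, where 6.94% of all genes fell and 9.09% rose. Both directions together came to 21.3% of the list beside 16.0% of all genes, and 1 gene passed the adjusted threshold. The median log2 fold change was -0.12 beside 0.03 over all genes. Gadd45b, a growth arrest and DNA damage response gene, fell from 16.4 ± 4.29 TPM to 8.48 ± 1.32 TPM (SD, n = 6 each; log2 fold change -0.85, SE 0.17, limma adjusted p = 0.0391), the highest knockdown liver at 9.57 TPM and the lowest LacZ liver at 9.60 TPM. Id3, an inhibitor of basic helix-loop-helix factors, fell from 57.8 to 29.2 TPM (-0.91, adjusted p = 0.0768). Cebpb, a liver-enriched transcription factor, fell from 192 to 134 TPM (-0.53, adjusted p = 0.134). Nfkbia, the inhibitor of NF-kappaB, fell from 80.8 to 65.2 TPM (-0.29, adjusted p = 0.159), and Trib1, a pseudokinase that controls C/EBP proteins, from 19.9 to 16.8 TPM (-0.23, adjusted p = 0.195). Sgk1, a kinase induced by serum and glucocorticoids, was the gene that rose, from 18.7 to 29.3 TPM (0.59, adjusted p = 0.0914). Each of these 6 kept its call in all 23 alternative fits. Macrophage markers were lower in the same livers (6 of 10, above), and their part in these values was not tested.

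In humanized livers 0 of the 40 genes of the same list that were tested passed an unadjusted limma p of 0.05, beside 11.5% of all genes, while limma-voom on recovered reads called 2. The median log2 fold change was 0.03 beside -0.05. ID2 and RHOB, the most abundant of the list, were at 108 ± 8.01 against 96.6 ± 16.7 TPM and at 88.8 ± 31.4 against 86.4 ± 30.3 TPM (SD, n = 4 each), with adjusted p of 0.726 and 0.977. Without HuR KD 4 and LacZ 2 together 6 of 37 genes of the list were called, beside 15.7% of all genes, and without LacZ 2 alone 5 of 40, beside 15.3%. Whether the list differed between WT and humanized livers was not tested.

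The kinases and factors that switch these genes on had a smaller residual spread, at a median percentile of 28.0 in WT and 27.6 in humanized livers. This rank takes no account of level or counting error either. Of 20 genes tested in WT livers 4 passed the test (beside 16.0% of genes called). Mapk8 (JNK1), Map2k1 (MEK1) and Mapk9 (JNK2) fell by 0.26, 0.17 and 0.16 on the log2 scale (adjusted p = 0.104, 0.198 and 0.241). Mapk9 lost the call with array weights and without HuR KD 3 or LacZ 1, 2 or 6. In humanized livers 1 of 18 rose and 2 fell (16.7%, beside 11.5%), and 0 passed adjustment. RPS6KA3 (RSK2), a kinase downstream of ERK, fell from 32.3 to 15.4 TPM (-1.01, adjusted p = 0.0936). ELK1, a ternary complex factor that acts with SRF at the FOS promoter, fell from 6.81 to 4.22 TPM (-0.60, adjusted p = 0.234) but was not called by limma-voom. MKNK2, a kinase that phosphorylates eIF4E, rose from 9.63 to 17.9 TPM (0.93, adjusted p = 0.289).

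A short list of heat shock and hypoxia genes was followed, which can respond to the handling of tissue but also to other conditions. By limma 0 of 8 tested passed in WT (beside 16.0% of all genes) and 0 of 7 in humanized livers (beside 11.5%). These counts are too small to set the list apart from all genes. Txnip and Vegfa, the most abundant in WT livers, were at 156 ± 57.9 against 147 ± 32.1 TPM (adjusted p = 0.988) and at 60.7 ± 3.25 against 63.1 ± 5.14 TPM (adjusted p = 0.746, SD, n = 6 each). TXNIP and DNAJB1 in humanized livers were at 126 ± 46.9 against 99.1 ± 41.9 TPM (adjusted p = 0.750) and at 27.7 ± 6.01 against 24.0 ± 5.77 TPM (adjusted p = 0.770, SD, n = 4 each). Hspa1b in WT livers ranged from 5.13 TPM in LacZ 5 to 38.5 TPM in LacZ 3, a spread over livers of the same group. The median residual percentile of these genes was 80.4 in WT and 71.3 in humanized livers, beside 80.2 and 82.7 for the members.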

How the data were processed

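Total RNA from 20 livers had been sequenced as stranded paired-end libraries. Per the methods of the study, cutadapt was used for trimming, HISAT2 for alignment (mouse GENCODE M23, or a joint index of both genomes for humanized livers) and featureCounts for counting. Reads alike in both genomes can be lost or misassigned in a joint index, which was not tested. The submitters' processing notes also name Trim Galore. The deposited unit is TPM; the formula and gene lengths are not given in the sources used here, and the authors' own DESeq2 comparison was not used. All columns matched a sample.

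TPM were compared as log2(TPM + 1), which understates the change of low genes, for genes averaging at least 1 TPM in the set, with limma 3.58.1 in R 4.3.3 (lmFit, eBayes with trend) on all genes, at an unadjusted p under 0.05 with Benjamini-Hochberg adjusted values beside it. Members were also compared by two-sided exact permutation of livers (924 and 70 groupings). Reads were recovered as whole multiples of a step per gene (tolerance 0.02) for all 25110 eligible mouse genes and all but MT-RNR2 of 18702 human genes. The fit and the recovery were tested on simulated data. Poisson intervals are 95% and cover counting error only.

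The members, the lists and the naming rule (every member, HuR, and per list and set up to 6 genes past the threshold or else the 2 most abundant) were chosen with earlier results of these data known. Of the upstream kinases and factors, 1 gene that passed in WT livers is not reported here. The labels number the livers as separate samples and give the dose per mouse, without saying further that no 2 came from 1 mouse; the number of hepatocyte donors is not given in the sources used here. The labels do not say whether equal replicate numbers pair livers, and the main fits did not pair them. Deviations of same-numbered livers correlated at -0.14 to 0.21 in WT and -0.25 to 0.14 in humanized livers, which cannot settle it. Alternatives were 0.1 as pseudocount, no filter or 5 TPM, median-of-ratios, protein-coding or quantile scaling, eBayes without trend, array weights, a replicate block and leaving out each liver. Limma-voom on recovered reads, and the fits with a term for or without humanized HuR KD 4 and LacZ 2, were added after seeing the data, as was a fit of FOS with no filter and without HuR KD 4.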

Additional observations from a re-analysis of the deposited data

Results flagged for a closer look

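Chance passes Dixon's 95% limit in about 1 group in 20 where values are normal and groups independent. Here the values were TPM and the groups shared livers, so that rate need not hold. Of 42 groups of member and HuR values examined for a single liver far from the rest (a gap over the group's range above that limit), 8 held such a liver. In WT livers these were Fos in HuR KD 5 (3.38 TPM on 95 reads, next 2.56), Atf3 in LacZ 1 (4.24 TPM on 129 reads, next 2.42) and Ier3 in LacZ 2 (4.50 TPM on 3 reads, next 2.04). In humanized livers HuR KD 4 stood off for FOS (4.50 TPM on 159 reads, next 1.22), DUSP1 (287 TPM, next 91.2) and KLF6 (11.9 TPM on 809 reads, next 3.34). HuR KD 1 stood off for EGR1 (5.11 TPM on 25 reads, next 1.93), and LacZ 1 lay below the other LacZ livers for DUSP1 (41.3 TPM on 323 reads, next 102).

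The effect of the knockdown differed between humanized and WT livers at an unadjusted limma p under 0.05 for MYC (difference of log2 fold changes -1.11, adjusted p = 0.0805) and FOS (0.72, adjusted p = 0.246). The joint fit pooled the residual variance of both sets, so these p can be too small. FOS entered that fit only through humanized HuR KD 4, and with no filter and without that liver its value was 0.36 (adjusted p = 0.465). MYC was lower with knockdown in 3 of 4 humanized livers than in every humanized LacZ liver, and Myc was higher in 4 of 6 WT livers than in every WT LacZ liver.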

How the results depend on the processing

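HuR stayed lower at an unadjusted p under 0.05 in all 23 WT and all 19 humanized alternatives, at log2 fold changes of -0.95 to -0.77 and -0.72 to -0.46, and the MYC interaction kept its sign and its call in all 29. Those joint fits pooled the variance of both sets, and none was a limma-voom fit. The Myc difference in WT livers was 0.33 to 0.52 over the fits that leave out 1 liver, and that of MYC in humanized livers was -1.01 to -0.45. Whether livers of equal replicate number belong together is not given by the labels. With a replicate block Myc stayed at 0.41 but missed the threshold (0 WT members called), and MYC stayed at -0.70 and passed it (1 humanized member called). In the joint fit with the block 1 member pair, MYC, had an interaction, and FOS lost its call. Within each set the block changed the call of no other member.

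The 1 WT member called became 2 with array weights and 2 without WT LacZ 2 and HuR KD 6, 0 after adjustment and 0 to 2 with 1 liver left out. Calls over all genes changed in these fits too. The main fit called 1371 of 15090 genes higher and 1047 lower, and array weights called 2856 and 1349. Without WT LacZ 2 and HuR KD 6 the calls were 2323 and 1176 of 15082. The 0 humanized members called became 1 with quantile normalization, 1 with the term for the livers that stood apart (MYC at -0.70), 1 with voom, 2 without both of those livers (MYC at -0.94) and 0 to 1 with 1 liver left out. Over all 12738 genes the main fit called 458 higher and 1003 lower, quantile normalization 778 and 867 and the term 645 and 1275. Voom called 725 and 711 of 12384, and the fit without both livers 574 and 1437 of 12826. The 10 other immediate early genes called in WT livers became 1 after adjustment and 6 to 15 with 1 liver left out (6 without WT HuR KD 3 and 6 without WT LacZ 6), and the 0 in humanized livers became 1 with median-of-ratios factors, 1 with array weights, 6 with the term, 6 without both livers, 2 with voom and 0 to 5 with 1 liver left out. The 2 member pairs with an interaction became 1 without a filter, 0 at 5 TPM, 1 with array weights and 1 to 2 with 1 liver left out; at 5 TPM MYC and FOS no longer entered the joint fit.

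Uncalled members near 0 changed sign. With array weights Fos was at 0.049, Jun at 0.10, Atf3 at 0.11, Ier3 at 0.087 and Klf6 at 0.064. Without WT LacZ 2 and HuR KD 6 Fos was at 0.034, Jun at 0.082, Atf3 at 0.038, Ier3 at 0.037 and Klf6 at 0.058. With voom Fos was at 0.037, Jun at 0.084, JUN at 0.058, JUNB at 0.0038, ATF3 at 0.26 and KLF6 at 0.17. ATF3 was at 0.025 with a pseudocount of 0.1, 0.055 with median-of-ratios factors, 0.092 with protein-coding TPM and 0.066 with quantile normalization, and DUSP1 was at -0.098 without both humanized livers. With 1 liver left out the ranges were -0.093 to 0.033 for Fos, -0.19 to 0.076 for Jun, -0.066 to 0.20 for Junb, -0.21 to 0.051 for Atf3, -0.038 to 0.073 for Ier2, -0.11 to 0.080 for Klf6, -0.48 to 0.14 for JUN, -0.16 to 0.24 for ATF3, -0.23 to 0.59 for DUSP1 and -0.65 to 0.074 for KLF6. The causes were not tested. With 4 livers a group and as little as 1 read for FOS, the humanized intervals run from 0.355 (MYC) to 3.15 (FOS) times the control level of TPM + 1, a scale that understates the fold of low genes. FOS was left out of the filtered fits without humanized HuR KD 4, since it then averaged under 1 TPM.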
